A study of Rattus norvegicus with 12 samples.

Results

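Granins are the acidic cargo proteins of the dense-core granule, the compartment in which endocrine cells store peptide hormones, and the prohormone processing enzymes are the proteases and modifying enzymes that turn a precursor into an active hormone inside it. The 10 genes described here were taken by name: Chga and Chgb (chromogranins A and B), Scg2 and Scg3 (secretogranins II and III), Vgf (a granin-like precursor of neuropeptides), Pcsk1 and Pcsk2 (the prohormone convertases PC1/3 and PC2), Scg5 (7B2, the chaperone that PC2 needs to become active), Cpe (carboxypeptidase E) and Pam (the peptide-amidating enzyme). All 10 were among the 28727 named genes of the count table, and all 10 were among the 14669 genes with enough counts to be tested.

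The cells were INS-1 832/13, a rat insulinoma line that secretes insulin when glucose rises. They carried an adenovirus for GFP, the control, or an adenovirus for ChREBPβ, the short and constitutively active isoform of the carbohydrate response element binding protein, and were kept in 2 or 11 mM glucose. Each of the 4 groups (GFP 2 mM, GFP 11 mM, ChREBPβ 2 mM and ChREBPβ 11 mM) had 3 libraries, lettered a to c, 12 in all. The study's account of these data gives 48 h of culture, whereas its general methods for adenovirus give longer times before harvest. The ChREBPβ of this virus is the mouse protein with an mCherry tag, so the 2 viruses also differ in their fluorescent protein, every group is of this single tumour line, and no group without a virus was analysed here. The study describes its heat maps of these data as averages of 3 independent experiments. Nothing in the labels says that the 3 libraries of a group came from separate cultures. The spread between the libraries, and the p-values built on it, may therefore be partly technical.

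Proinsulin, proIAPP and proglucagon are cut after pairs of basic residues by PC1/3 and PC2 while the granule matures. Carboxypeptidase E then removes the basic residues left at the new ends, and Pam amidates peptides that end in glycine. The granins aggregate in the acidic, calcium-rich lumen of the trans-Golgi and help to gather cargo into granules, and secretogranin III links chromogranin aggregates to the granule membrane. 7B2 escorts proPC2 through the secretory pathway, whereas PC1/3 has an inhibitor of its own, proSAAS, encoded by Pcsk1n. Several of these genes are known to carry cAMP response elements in their promoters.

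The promoter sequences are shown because the genes moved together and because Scg5, which moved the other way, can be set beside them. Of the 10 genes, 8 had a promoter in the RefSeq table of the rat assembly GRCr8, which covers 250 bases before to 50 bases after the annotated start of transcription, while Chga and Pcsk1 were not matched. Below are the last 150 bases before the start for 4 of them, 5′ to 3′ on the strand of the gene, with the cAMP response element TGACGTCA, its part TGACG (or CGTCA, the same letters on the other strand) and the E-box CACGTG in capitals. The Scg2 stretch is chr9:88256867-88257016 on the minus strand, the Vgf stretch chr12:25277021-25277170 on the minus strand, the Pcsk2 stretch chr3:151333788-151333937 on the plus strand and the Scg5 stretch chr3:121042796-121042945 on the minus strand.
Scg2: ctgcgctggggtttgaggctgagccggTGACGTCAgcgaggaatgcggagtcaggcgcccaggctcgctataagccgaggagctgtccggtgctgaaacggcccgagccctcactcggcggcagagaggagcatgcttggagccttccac
Vgf: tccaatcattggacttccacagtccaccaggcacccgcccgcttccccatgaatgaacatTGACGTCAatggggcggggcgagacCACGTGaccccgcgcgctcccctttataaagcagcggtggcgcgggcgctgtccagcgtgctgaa
Pcsk2: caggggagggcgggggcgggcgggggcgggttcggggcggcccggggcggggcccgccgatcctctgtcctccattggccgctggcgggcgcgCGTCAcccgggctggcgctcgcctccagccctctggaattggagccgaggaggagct
Scg5: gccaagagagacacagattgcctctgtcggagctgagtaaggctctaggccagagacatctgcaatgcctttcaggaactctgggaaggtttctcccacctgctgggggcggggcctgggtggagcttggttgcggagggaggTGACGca

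The full element TGACGTCA stood in the promoters of Scg2, beginning 123 bases before the start, and Vgf, beginning 90 bases before it. These are 2 of the 8 promoters matched, against 1.83% of all 33469 promoters in the table. TGACG on either strand, which the full element contains, was present in 7 of the 8 (Scg2, Scg3, Scg5, Vgf, Pcsk2, Cpe and Pam, with Chgb the exception) and in 21.2% of all. The E-box CACGTG was found in Vgf, 65 bases before the start, and in 6.42% of all promoters. GGGCGG was present in 6 of the 8 against 33.1%, and CCAAT in 3 of the 8 against 37.5%. A match of letters is a description of the window and not a mapped binding site, and Scg5 holds TGACG, 7 bases before its start, as do genes that fell.

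Library totals ran from 25754488 to 32938546 counts with GFP at 2 mM, from 36219167 to 46654823 with GFP at 11 mM, from 28595982 to 57726412 with ChREBPβ at 2 mM and from 57088794 to 60531215 with ChREBPβ at 11 mM. Depth therefore moved with the groups, and levels are given as CPM, counts scaled to a common library size, with TMM factors that correct for differences in library composition. ChREBPβ 2 mM replicate a had 28595982 counts, within the range of the GFP 2 mM libraries, and its levels of the genes below lay with those of the deeper replicates b and c. That is a single library, and the part of depth in the changes below was not tested. Txnip, a classical ChREBP target, was at 26.3 ± 1.7 CPM with GFP at 2 mM (mean ± SD, n = 3), 351 ± 18.2 with GFP at 11 mM, 457 ± 13 with ChREBPβ at 2 mM and 666 ± 9.8 with ChREBPβ at 11 mM. The entry named ChREBPb was between 64.7 and 82.2 CPM with GFP and between 81.4 and 98.2 CPM with ChREBPβ, on counts of rat sequence that need not register a mouse transgene. The entry named Mlxipl, the gene name of ChREBP, went the other way. It was at 256 ± 18.8 and 207 ± 5.3 CPM with GFP at 2 and 11 mM, and at 205 ± 6.6 and 188 ± 11 CPM with ChREBPβ. Of 8 β-cell markers, 7 exceeded 1 CPM, and their summed level was 14648 to 16473 CPM with GFP at 2 mM, 10976 to 12017 with GFP at 11 mM, 5683 to 5791 with ChREBPβ at 2 mM and 4685 to 5049 with ChREBPβ at 11 mM. Gcg, the proglucagon gene that marks α-cells, was at 1589 to 1719 CPM with GFP against 429 to 502 CPM with ChREBPβ. Duct markers, summed over 3 genes of which 1 was under 1 CPM throughout, were at 104 to 140 CPM with GFP and 151 to 171 CPM with ChREBPβ. Acinar, fibroblast, δ-cell, PP-cell, chromaffin, endothelial and leukocyte lists summed to at most 1.86 CPM in any library. The part of the β-cell markers, Gcg and duct markers in the changes below was not tested. In RNA from whole cultures, fewer cells that express a gene and less of its RNA per cell cannot be told apart.

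The first question was what the ChREBPβ virus did to these genes at each glucose level. At 2 mM glucose 9 of the 10 genes fell and 1, Scg5, rose. At 11 mM the same 9 fell, and Scg5 was higher by less than the 1.2-fold set as the smallest change to be called. A gene was called when the adjusted p of edgeR's quasi-likelihood test was under 0.05 (Benjamini-Hochberg over all genes tested) and the change was at least 1.2-fold. Many genes moved in these comparisons: 23.2% of all genes tested were called lower and 21% higher at 2 mM, and 19.1% lower and 14.3% higher at 11 mM. The median log2 fold change of the 10 genes was −0.92 at 2 mM and −0.78 at 11 mM, against −0.02 over all genes tested in both comparisons. In all 10 genes the 3 ChREBPβ libraries lay wholly above or below the 3 GFP libraries at both glucose levels, which was also true of 63.3% of all genes at 2 mM and 56.1% at 11 mM. Both comparisons are part of 1 fit over 12 libraries.

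**Figure D1:**
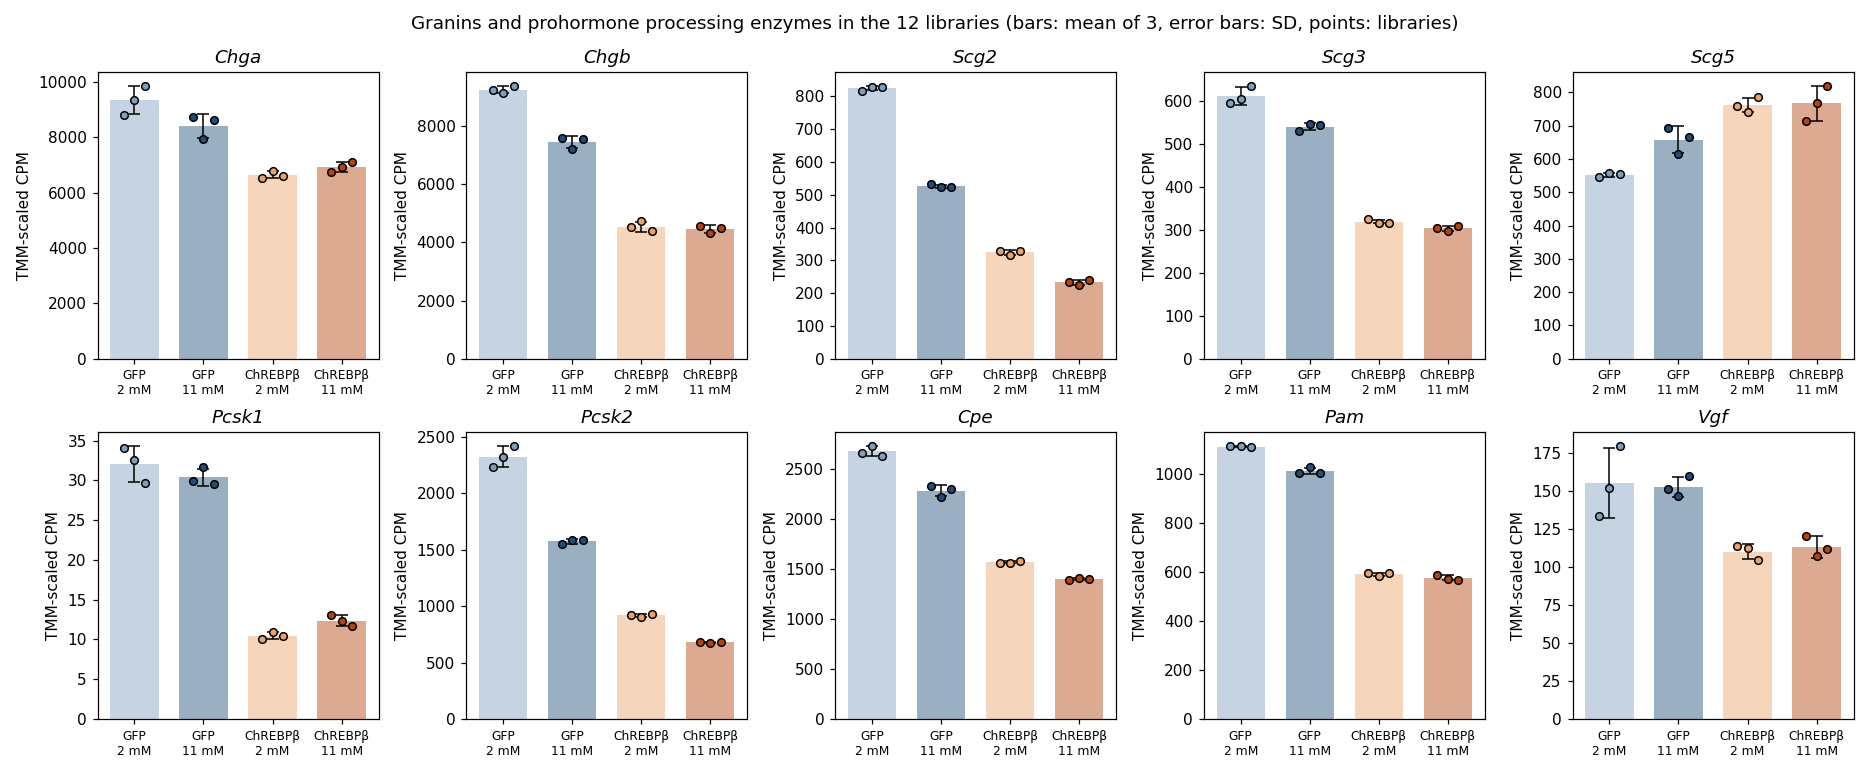
Level of each of the 10 genes in each library, in TMM-scaled CPM on a linear axis from 0, one panel per gene; bars are means of 3 libraries, error bars SD and points single libraries. In 9 panels all 6 ChREBPβ libraries (orange) lie below all 6 GFP libraries (blue), and in the Scg5 panel they lie above them.

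The granins did not fall equally. In GFP cells Scg2, the precursor of secretoneurin, measured 817, 830 and 830 CPM at 2 mM glucose and 532, 523 and 525 CPM at 11 mM. In ChREBPβ cells it measured 330, 316 and 328 CPM at 2 mM and 233, 225 and 241 CPM at 11 mM. The 4 groups formed 4 steps that did not overlap, with the highest ChREBPβ library below the lowest GFP library. The log2 fold change with ChREBPβ was −1.35 (SE 0.037, edgeR adjusted p = 1.15e-16) at 2 mM and −1.18 (SE 0.037, adjusted p = 1.67e-15) at 11 mM, or −60.7% and −55.8%.

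The GFP libraries of Chgb, chromogranin B, read 9230, 9152 and 9399 CPM at 2 mM, then 7598, 7232 and 7543 CPM at 11 mM. In ChREBPβ cells its levels were 4520, 4724 and 4387 CPM at 2 mM and 4563, 4321 and 4502 CPM at 11 mM. The ChREBPβ libraries of the 2 glucose levels overlapped one another and lay far below both sets of GFP libraries. Chgb changed by −1.03 (SE 0.038, edgeR adjusted p = 9.64e-15) on the log2 scale at 2 mM and by −0.74 (SE 0.038, adjusted p = 2.4e-12) at 11 mM.

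Chga, chromogranin A, the other main chromogranin, fell less. Its levels in GFP cells were 8822.5, 9357 and 9868 CPM at 2 mM, against 8728, 7927 and 8611 CPM at 11 mM. Those in ChREBPβ cells were 6535, 6787 and 6610 CPM at 2 mM, against 6755, 6933 and 7095 CPM at 11 mM. The lowest GFP library thus stayed above the highest ChREBPβ library, by a narrower margin than for Chgb. The log2 fold change was −0.49 (SE 0.044, edgeR adjusted p = 9.71e-09) at 2 mM and −0.28 (SE 0.044, adjusted p = 2.45e-05) at 11 mM. The value at 11 mM is close to the 1.2-fold limit (0.263 on the log2 scale), and without GFP 11 mM replicate a it was −0.26 and no longer called; the same happened with RLE factors and with DESeq2 (−0.26 with each).

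Scg3, which tethers granin aggregates to the granule membrane, ranged from 596 to 637 CPM in GFP cells at 2 mM and from 531 to 547 CPM at 11 mM. In ChREBPβ cells the ranges were 317 to 325 CPM and 298 to 310 CPM. Its change was −47.8% at 2 mM (log2 −0.94, edgeR adjusted p = 3.82e-14) and −43.8% at 11 mM (log2 −0.83, adjusted p = 4.19e-13). Vgf varied between GFP libraries, reading 134, 152 and 180 CPM at 2 mM, then 147 to 160 CPM at 11 mM, and all 6 ChREBPβ libraries were lower, at 105 to 121 CPM. Its log2 fold changes were −0.50 (SE 0.075, edgeR adjusted p = 1.11e-05) at 2 mM and −0.43 (SE 0.074, adjusted p = 6.74e-05) at 11 mM.

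Of the 2 convertases, Pcsk2 is the one that acts late in proinsulin processing and is required for proglucagon processing in α-cells. GFP cells had 2231, 2315 and 2419 CPM of Pcsk2 at 2 mM, falling to 1547, 1584 and 1587 CPM at 11 mM. ChREBPβ cells had 923, 906 and 929 CPM at 2 mM, falling to 684, 674 and 681 CPM at 11 mM. As for Scg2, the 4 groups were 4 separate steps in the order GFP 2 mM, GFP 11 mM, ChREBPβ 2 mM, ChREBPβ 11 mM. The change with ChREBPβ was −1.34 (SE 0.037, edgeR adjusted p = 1.19e-16) on the log2 scale at 2 mM and −1.21 (SE 0.037, adjusted p = 1.13e-15) at 11 mM, or −60.4% and −56.8%. A pseudogene, Wbp4-ps1, overlaps Pcsk2 in the annotation, and the strand setting of the counting is not given in the sources used here.

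Pcsk1 encodes PC1/3, which begins the conversion of proinsulin. Its GFP libraries held 34.1, 32.6 and 29.6 CPM at 2 mM, against 29.9, 31.6 and 29.5 CPM at 11 mM. Its ChREBPβ libraries held 10.0, 10.9 and 10.4 CPM at 2 mM, against 13.1, 12.3 and 11.8 CPM at 11 mM. The GFP libraries of both glucose levels were mixed together, whereas all 6 ChREBPβ libraries lay below them. Pcsk1 had the largest fall of the 10 genes in both comparisons, with a log2 fold change of −1.61 (95% interval −1.76 to −1.47, edgeR adjusted p = 1.09e-13) at 2 mM and −1.29 (−1.43 to −1.16, adjusted p = 2.31e-12) at 11 mM. The intervals of Pcsk1, Pcsk2 and Scg2 overlapped at 11 mM, where Pcsk2 had −1.29 to −1.13 and Scg2 −1.25 to −1.10, so that their order there is within the error.

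Scg5 went the other way. GFP cells had 546, 557 and 556 CPM of it at 2 mM, with 694, 614 and 667 CPM at 11 mM. ChREBPβ cells had 760, 742 and 785 CPM at 2 mM, with 715, 768 and 821 CPM at 11 mM. All ChREBPβ libraries were above all GFP libraries, and the GFP libraries at 11 mM lay between those at 2 mM and the ChREBPβ libraries. The 7B2 gene rose by 37.8% at 2 mM (log2 0.46, SE 0.050, edgeR adjusted p = 1.37e-07). At 11 mM the value was 16.7% (log2 0.22, SE 0.050, adjusted p = 0.000952), under the 1.2-fold limit. Without ChREBPβ 11 mM replicate a it was 0.27 and called. When only the library totals were used for scaling, the median of all genes moved to −0.12 at 2 mM and −0.10 at 11 mM; Scg5 was then at 0.36 at 2 mM, still called, and at 0.14 at 11 mM. Under that scaling 33.2% of the genes called at 2 mM were higher, against 47.5% with TMM factors, and 29.3% against 42.9% at 11 mM.

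The trimming enzyme carboxypeptidase E and the amidating enzyme fell at both glucose levels. Cpe ranged in GFP cells from 2633 to 2731 CPM at 2 mM, then 2222 to 2326 CPM at 11 mM. The ranges in ChREBPβ cells were 1557 to 1575 CPM at 2 mM, then 1391 to 1406 CPM at 11 mM. It changed by −41.5% at 2 mM (log2 −0.77, edgeR adjusted p = 1.88e-13) and by −38.7% at 11 mM (log2 −0.71, adjusted p = 1.24e-12). Pam ranged from 1111 to 1116 CPM, then from 1006 to 1030 CPM, in GFP cells at 2 and 11 mM, and from 586 to 597 CPM, then 569 to 589 CPM, in ChREBPβ cells. Its log2 fold change was −0.91 (edgeR adjusted p = 1.33e-14) at 2 mM and −0.81 (adjusted p = 1.26e-13) at 11 mM. Both genes overlap another annotated gene (a long non-coding RNA for Cpe and a protein-coding locus for Pam), whose reads could not be separated here.

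Together the 10 genes took 2.77% to 2.86% of all counts with GFP at 2 mM and 2.25% to 2.36% with GFP at 11 mM. With ChREBPβ they took 1.52% to 1.56% at 2 mM and 1.47% to 1.51% at 11 mM. The share was thus lower in each ChREBPβ library than in each GFP library.

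**Figure D2:**
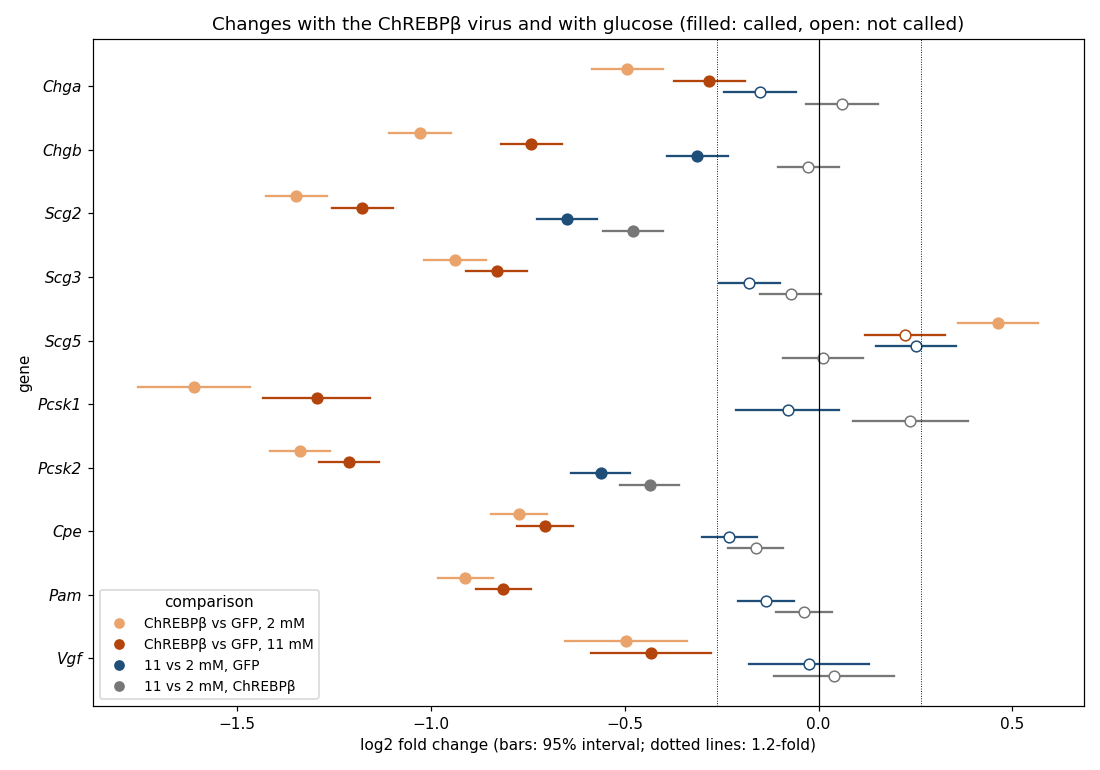
Log2 fold change of each gene in 4 comparisons, with bars for the 95% interval and dotted lines at 1.2-fold; filled points were called and open points were not. The ChREBPβ comparisons at 2 and 11 mM (orange and red) run from −1.61 (Pcsk1) to 0.46 (Scg5) and the glucose comparisons (blue and grey) from −0.65 (Scg2) to 0.25 (Scg5).

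The second question was what glucose did to the same genes under each virus. In GFP cells 11 mM glucose lowered Scg2, Pcsk2 and Chgb, and in ChREBPβ cells it lowered Scg2 and Pcsk2. Glucose moved fewer genes than the virus: with GFP 10% of all genes tested were called lower and 10.2% higher, and with ChREBPβ 2.88% lower and 0.988% higher. The median log2 fold change of the 10 genes was −0.16 with GFP and −0.03 with ChREBPβ. Scg2 changed by −36.2% with glucose in GFP cells (log2 −0.65, SE 0.037, edgeR adjusted p = 1.26e-10) and by −28.2% in ChREBPβ cells (log2 −0.48, SE 0.037, adjusted p = 1.45e-07). Pcsk2 changed by −32.3% in GFP cells (log2 −0.56, SE 0.037, adjusted p = 8.85e-10) and by −26.1% in ChREBPβ cells (log2 −0.44, SE 0.037, adjusted p = 4.14e-07). Chgb changed by −0.31 (SE 0.038, edgeR adjusted p = 2.71e-06) in GFP cells, while in ChREBPβ cells its log2 fold change was −0.03 (95% interval −0.10 to 0.05, adjusted p = 0.761).

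Another 5 genes had an adjusted p under 0.05 for glucose in GFP cells, with changes under 1.2-fold, which made 8 of 10 at any size of change against 34.3% of all genes tested. The log2 fold changes of the 5 were −0.23 for Cpe, −0.18 for Scg3, −0.15 for Chga, −0.14 for Pam and 0.25 for Scg5. Scg5 passed the limit, at 0.30, when GFP 11 mM replicate b was left out. Pcsk1 and Vgf had overlapping libraries and log2 fold changes of −0.08 (95% interval −0.21 to 0.05, edgeR adjusted p = 0.367) and −0.02 (−0.18 to 0.13, adjusted p = 0.837). Groups did not overlap in 8 of the 10 genes in this comparison, against 42% of all genes. In ChREBPβ cells 5 genes (Scg2, Scg3, Pcsk1, Pcsk2 and Cpe) had groups that did not overlap, against 28.9% of all genes. There Pcsk1 was higher at 11 mM in all 3 libraries, with a log2 fold change of 0.24 (95% interval 0.09 to 0.38, edgeR adjusted p = 0.0468), under the 1.2-fold limit.

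Cells with ChREBPβ at 11 mM were also set against GFP cells at 2 mM. The median log2 fold change of the 10 genes was −0.98, and 9 genes were called lower, against 26.8% of all genes tested, with Scg2 at −1.83 and Pcsk2 at −1.77 on the log2 scale and Scg5 called higher at 0.47. Cells with ChREBPβ at low glucose, set against GFP cells at high glucose, also had lower levels of 9 genes, against 14.8% of all genes, from −1.53 for Pcsk1 to −0.34 for Chga, and a value of 0.21 for Scg5 that was under the 1.2-fold limit. These comparisons share their libraries with those above and are not further evidence for them.

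The third question was whether the virus acted differently at the 2 glucose levels, which is the interaction of virus and glucose. A positive value here means that the ChREBPβ effect at 11 mM was less negative, or more positive, than that at 2 mM. Over all genes tested 1.56% were called higher and 4.74% lower. Chgb was called, with a difference of 0.29 between the log2 fold changes (SE 0.053, edgeR adjusted p = 0.00176), and so was Pcsk1, with 0.32 (SE 0.095, adjusted p = 0.0463). The Chgb value was 0.26 and just under the 1.2-fold limit without ChREBPβ 2 mM replicate c, and the adjusted p of Pcsk1 passed 0.05, at 0.0628 to 0.117, in 9 of the 12 fits that left out 1 library. It stayed under 0.05 without GFP 2 mM replicate c, GFP 11 mM replicate b or ChREBPβ 11 mM replicate c. Chga (0.21), Scg2 (0.17) and Scg5 (−0.24) had adjusted p of 0.0412, 0.0495 and 0.0393 with differences under 1.2-fold, so that 5 of the 10 genes were under 0.05 at any size of difference, against 8.07% of all genes tested. Scg3, Pcsk2, Cpe, Pam and Vgf had differences of 0.11, 0.13, 0.07, 0.10 and 0.06, with adjusted p from 0.159 to 0.798. For Pcsk2 the 95% interval of the difference was 0.02 to 0.23, and for Cpe it was −0.03 to 0.17.

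The balance between partners was then read within each library, where the ratio of the counts of 2 genes does not depend on how library size is scaled. Such a ratio also carries the lengths of both transcripts, so that its change between groups and not its size is informative. Scg5 to Pcsk2, the PC2 chaperone against the convertase it serves, was 0.238 ± 0.0078 (SD, n = 3) with GFP at 2 mM, 0.419 ± 0.031 with GFP at 11 mM, 0.829 ± 0.014 with ChREBPβ at 2 mM and 1.13 ± 0.081 with ChREBPβ at 11 mM. The 12 libraries fell into 4 steps without overlap. Over both glucose levels ChREBPβ raised the log2 ratio by 1.62 (exact permutation test within glucose levels, two-sided, p = 0.005, the smallest that its 400 permutations allow, and 0.00667 after adjustment over 4 ratios). Scg5 lay above and Pcsk2 below the GFP libraries in all ChREBPβ libraries. This p was therefore fixed by the single genes and is not further evidence for them. From 2 to 11 mM the log2 ratio differed by 0.81 in GFP cells and by 0.44 in ChREBPβ cells, each with exact permutation p = 0.1, the smallest that 3 against 3 libraries can give.

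Chga to Chgb rose as well, from 1.01 ± 0.048 with GFP at 2 mM and 1.13 ± 0.029 with GFP at 11 mM to 1.46 ± 0.038 and 1.55 ± 0.065 with ChREBPβ. The log2 ratio was higher by 0.50 with ChREBPβ (exact permutation p = 0.005, adjusted 0.00667) and all 6 ChREBPβ libraries lay above all 6 GFP libraries. Pcsk1n to Pcsk1, the PC1/3 inhibitor against its target, was higher by 1.09 (exact permutation p = 0.005, adjusted 0.00667), although Pcsk1n itself was low and was not called (log2 −0.43 at 2 mM and −0.33 at 11 mM, edgeR adjusted p = 0.141 and 0.261). Pcsk1 was lower in all ChREBPβ libraries, so this ratio carries a fall already given above. Pcsk1 to Pcsk2 was 0.0139 ± 0.0015, 0.0193 ± 0.00069, 0.0114 ± 0.0006 and 0.0182 ± 0.00091 in the same order of groups. Its log2 ratio differed by −0.18 with ChREBPβ (exact permutation p = 0.015, adjusted 0.015), by −0.28 at 2 mM (p = 0.1) and by −0.09 at 11 mM (p = 0.2). Without ChREBPβ 2 mM replicate a the difference was −0.17 with an adjusted p of 0.05. From 2 to 11 mM it differed by 0.48 in GFP cells and by 0.68 in ChREBPβ cells, with exact permutation p = 0.1 for each.

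**Figure D3:**
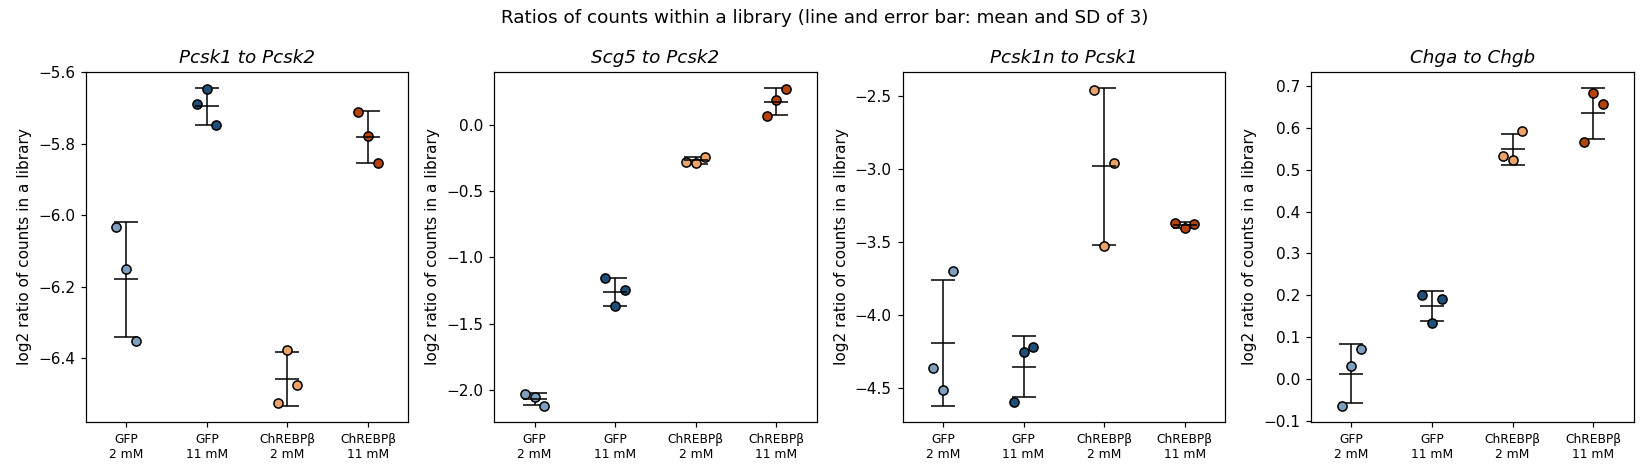
Log2 of the ratio of 2 genes' counts within each library, one panel per ratio, with points for libraries and a line and error bar for the mean and SD of 3. Scg5 to Pcsk2 climbs over 4 separate steps from −2.07 with GFP at 2 mM to 0.17 with ChREBPβ at 11 mM, Chga to Chgb separates the 2 viruses, and Pcsk1 to Pcsk2 lies between −6.52 and −6.03 at 2 mM and between −5.86 and −5.65 at 11 mM.

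Across the 12 libraries, Scg2 and Pcsk2 had the most similar pattern of any pair (Pearson r = 0.998 of log2 CPM), followed by Scg3 and Pam (r = 0.997). Scg5 ran against the other 9, with r from −0.93 with Chgb to −0.79 with Vgf. The genes outside the list most like Pcsk2 among 10458 candidates were Maob (r = 0.999), Aga (0.996) and Clstn3 (0.996), and Maob and Aga were also among the 3 most like Scg2 (0.997 and 0.998). Those most like Pcsk1 were Tll1 (0.997), Exoc6 (0.996) and Gabra4 (0.995). These correlations describe differences between 4 groups that share libraries, depth and virus.

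Other genes of the pathway were read from 4 lists chosen by function, against the 23.2% of all genes tested that were called lower and the 21% called higher at 2 mM, and the 19.1% and 14.3% at 11 mM. Most precursors of peptide hormones fell. Of 12 prohormone genes 8 had enough counts to be tested. At 2 mM 7 fell and 1 rose, at 11 mM 6 fell and 1 rose, and the median log2 fold changes were −1.43 and −1.22. These counts and medians include Npy, which was called lower at 2 mM only. Its mean was 0.347 CPM with GFP at 2 mM and at most 0.0954 CPM in the other groups. Npy had enough counts to be tested only through the group where it was highest, so its fall is no support. Lower in both comparisons were Gcg (proglucagon, −1.91 and −1.79), Iapp (amylin, −1.55 and −1.35), Ins1 and Ins2 (−1.44 and −1.29, and −1.42 and −1.15), Cartpt (−1.25 and −1.29) and Nucb2 (the nesfatin precursor, −1.25 and −0.91). Cartpt was low, at means of 2.37 to 6.67 CPM. Ins1 and Ins2 are near-identical genes between which the counting may have split reads. Cck, the cholecystokinin precursor, was higher. GFP cells had 16.9 ± 1.5 and 22.7 ± 1.6 CPM of it at 2 and 11 mM, and ChREBPβ cells 75.3 ± 4.8 and 85.3 ± 5.5 CPM (log2 2.15 and 1.90).

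Of 17 other convertases and trimming enzymes tested, 3 rose and 4 fell at 2 mM and 2 rose and 5 fell at 11 mM, with medians of −0.21 and −0.14. These counts are near the shares of all genes tested (21% higher and 23.2% lower at 2 mM, 14.3% and 19.1% at 11 mM) and are no trait of the list. A pair of convertases of the constitutive secretory pathway rose: Furin (from 151 ± 4.7 to 205 ± 6.7 CPM at 2 mM, log2 0.44, and 0.47 at 11 mM) and Pcsk6, or PACE4 (from 47.2 ± 0.37 to 143 ± 0.54 CPM at 2 mM, log2 1.60, and 0.98 at 11 mM). Pcsk5 fell (−0.71 and −0.62), as did the carboxypeptidases Cpd (−0.49 and −0.43) and Cpm (−1.19 and −0.94) and Qpct, the enzyme that forms pyroglutamate at peptide ends (−0.78 and −0.70). Pcsk5 and Cpm were low, at means of 4.16 to 6.76 CPM and 2.19 to 4.96 CPM.

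Of 17 genes of the granule membrane and of granule biogenesis tested, 1 rose and 4 fell at either glucose level, with medians of −0.05 and −0.07. The count of lower genes is near the share of all genes tested (23.2% at 2 mM and 19.1% at 11 mM). Those that fell were Ptprn, the granule membrane protein IA-2 (−0.90 and −0.86), the monoamine transporter Slc18a1 (−1.06 and −0.79), Cadps2, a priming factor of dense-core granules (−0.57 and −0.68), and Ica1 (−0.53 and −0.43), and Atp7a, the copper transporter that supplies Pam with its metal, rose (0.78 and 0.61). Of 6 transcriptional regulators 3 fell at 2 mM and 2 at 11 mM, with medians of −0.20 in both: Pax6 (−1.16 and −0.96) and Nkx2-2 (−0.97 and −0.69) were lower in both. With glucose in GFP cells 5 substrates fell, among them Npy with its few counts, and 1 rose. In the same comparison 3 regulators fell and 1 rose, and the convertase and granule membrane lists each had 2 of 17 genes in each direction. Over all genes tested 10% were lower and 10.2% higher there, which the latter 2 lists are near.

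**Figure D4:**
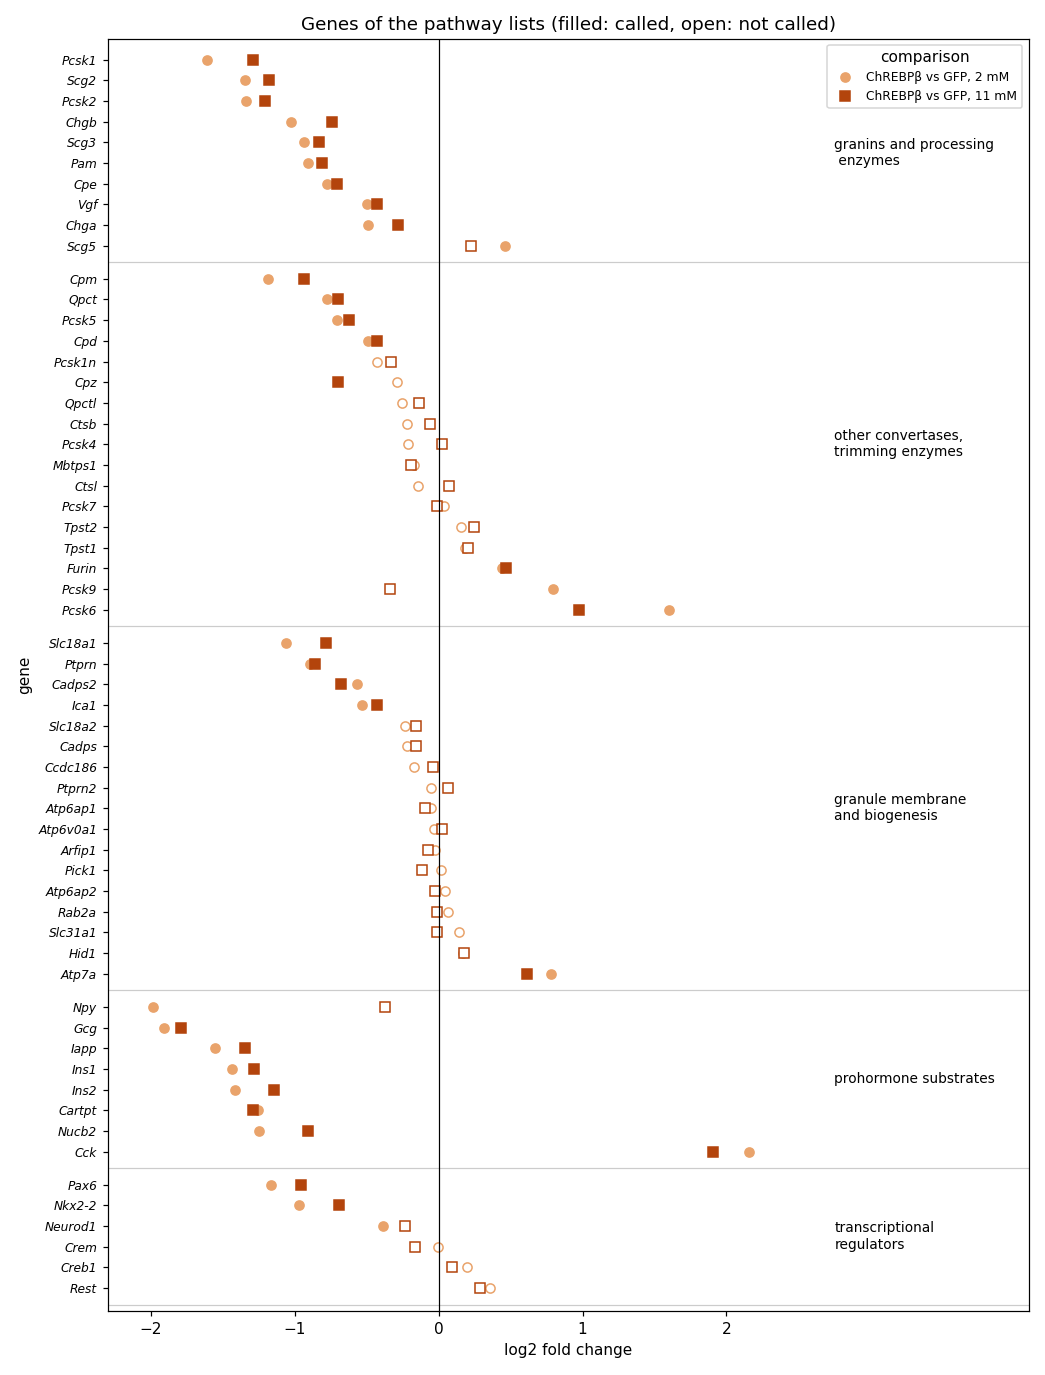
Log2 fold change of the granins and processing enzymes and of 4 further lists with ChREBPβ against GFP at 2 mM (circles) and 11 mM (squares), sorted by the value at 2 mM within each list; filled symbols were called. Granins, processing enzymes and prohormone substrates lie mostly left of 0, with Scg5 and Cck to the right, and the granule membrane list is centred near 0.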

How the data were processed

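Total RNA of 12 samples of INS-1 832/13 cells was amplified and sequenced, and the authors deposited raw read counts per gene, without normalization; per the labels the submitters' processing notes name the build Rnor 6.0 and edgeR, and the aligner, counter and strand setting are not given in the sources used here. Counts of amplified reads are not independent molecules. The authors' 4 columns of group means were not used. One entry without a name held at most 0.006% of a library and was left out.

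Groups follow the labels. With R 4.3.3 and edgeR 4.0.16, 14669 genes passed filterByExpr, and all 12 libraries entered 1 quasi-likelihood fit with TMM factors and the group as factor; 6 comparisons and the interaction were contrasts, adjusted over all genes tested. Calls needed an adjusted p under 0.05 and 1.2-fold. The SE is the log2 fold change divided by the square root of F. The test was checked on simulated data. Ratios of counts were tested by exact permutation. DESeq2 1.42.0, other scalings, filters and fold limits, thinning to 25754488 counts and leaving out each library were alternatives. Gene names were matched to RefSeq (GRCr8) for promoters and overlaps, with 17197 of 28727 found. The 10 genes and the lists were chosen with earlier results of these data known. Outside the 10 genes, named genes are those of the lists called in the same direction in both virus comparisons and the 3 genes most like each of the 3 members with the largest change at 2 mM. Txnip, the ChREBPb and Mlxipl entries and Pcsk1n were added as checks, and Npy was named for its few counts. A few genes that met these rules are not reported in the text or figures.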

Additional observations from a re-analysis of the deposited data

Results flagged for a closer look

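The ChREBPβ effect differed between the glucose levels in 5 of the 10 genes, by the interaction term of the edgeR fit at an adjusted p under 0.05 and any size of difference, which 8.07% of all genes tested also reached. The effect at 11 mM minus that at 2 mM, on the log2 scale, was 0.21 for Chga (95% interval 0.08 to 0.34), 0.29 for Chgb (0.18 to 0.40), 0.17 for Scg2 (0.06 to 0.28), 0.32 for Pcsk1 (0.12 to 0.52) and −0.24 for Scg5 (−0.39 to −0.09). In all 5 the effect at 11 mM was the smaller in size, and Chgb and Pcsk1 alone differed by 1.2-fold or more.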

How the results depend on the processing

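All 10 genes kept their direction in both virus comparisons under every alternative run. The count of genes called was within 1.5 times the reported one under DESeq2, RLE factors, library totals, no filter, thinning and the replicate block. With no minimum fold change 5030 genes were called for glucose with GFP, 1100 with ChREBPβ and 6109 for ChREBPβ 2 mM against GFP 11 mM. Members called higher became 1 in the virus comparison at 11 mM, in both glucose comparisons and in ChREBPβ 2 mM against GFP 11 mM. Members lower for glucose with GFP became 7, and the interaction had 4 higher and 1 lower. Of all 14669 genes tested, 34.3% were then called for glucose with GFP and 8.07% for the interaction. Of the genes called, 53.1% and 36.3% were higher for glucose with GFP and with ChREBPβ. The share was 48.8% for ChREBPβ 2 mM against GFP 11 mM and 25.4% for the interaction. In the virus comparison at 11 mM 7293 genes were called, 47.4% of them higher. A minimum of 2-fold left 1456 genes (2 mM), 992 (11 mM), 294 and 28 (glucose with GFP and with ChREBPβ), 1866 (ChREBPβ 11 mM against GFP 2 mM), 795 (ChREBPβ 2 mM against GFP 11 mM) and 108 (interaction), with 4, 3, 0, 0, 5 and 1 members lower in the first 6 and 0 higher in any. These totals are out of 14669 genes tested and hold both directions. In the same order 51.4%, 57.6%, 62.2%, 25%, 45.7%, 63% and 10.2% of the genes called were higher. Thinned to the smallest library, the interaction had 1 member higher, and Pcsk1 was no longer called (0.34, edgeR adjusted p = 0.0783). Leaving out 1 library at a time gave 0 to 1 members higher at 11 mM, 0 to 1 higher for glucose with GFP, 0 to 2 higher and 0 to 1 lower for the interaction (Scg5 was called at −0.29 without GFP 11 mM replicate b or ChREBPβ 11 mM replicate c), and a log2 ratio of Pcsk1 to Pcsk2 of −0.23 to −0.15. Signs turned only in members not called: leaving out 1 library, Vgf ranged from −0.12 to 0.095 for glucose with GFP, and for glucose with ChREBPβ Scg5 ranged from −0.039 to 0.060 (−0.00656 with library totals), Chgb from −0.051 to 0.00296 and Vgf from −0.00869 to 0.079. The Vgf interaction ranged from −0.055 to 0.16. The cause of these shifts was not tested.

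No shift common to libraries of the same letter was seen: the deviations of 18 same-letter pairs from their group means correlated at −0.11 to 0.064, and 0 exceeded 0.1. Pairs of different letters reached 0.16. Whether libraries of the same letter share a culture or an experiment cannot be read from these values. With the replicate block 6449, 4861, 2938 and 547 genes were called in the virus comparisons at 2 and 11 mM and the glucose comparisons with GFP and ChREBPβ, and 912 for the interaction, and no member's call changed. Levels per kilobase were not run, since transcript lengths were not used here, so levels are not compared between genes. Replicates differed by more than counting noise when all genes tested were pooled (chi-square per degree of freedom 3.09 to 17.3). What limits the precision of single genes was not tested.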
